A study of Mus musculus with 2 samples.

Results

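The miR-29 family of the mouse is made by 4 genes, Mir29a, Mir29b-1, Mir29b-2 and Mir29c. They were taken by gene symbol from tables of 1973 microRNA genes, and each of the 4 had a row. The genes form 2 genomic pairs, Mir29a with Mir29b-1 on chromosome 6 and Mir29b-2 with Mir29c on chromosome 1. Their values come from microRNA sequencing of whole liver of B6NCrl mouse embryos at 14.5 days, with 2 libraries of RNA under 30 nucleotides, called replicates 1 and 2, that form 1 group. No agent, genotype or other condition was compared. The labels call each sample the liver of 1 pup, collected on different days, but also give mixed sex and a shared donor ID. Any test here therefore compares these 2 libraries, and their spread may be partly technical.

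MicroRNAs are cut from a hairpin that gives a 5p and a 3p arm, and the seed near the 5′ end of the mature strand guides it to its target mRNAs. In the miR-29 family the 3p arm is the main product. It is best known for repressing mRNAs of collagens and other proteins of the extracellular matrix and for repressing the DNA methyltransferases Dnmt3a and Dnmt3b. In adult liver it is studied as a brake on fibrosis, because stellate cells, which lay down matrix, lose it when they are activated. The liver of the mid-gestation embryo is also the site where most red blood cells are formed.

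The 3p sequences show which of the genes a read of the mature strand can tell apart. All 4 genes matched the RefSeq microRNA table (GRCm38.p6), and their 3p arms gave 3 distinct sequences. Capitals mark the seed, bases 2 to 8.
miR-29a-3p: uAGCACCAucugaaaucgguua
miR-29b-3p (from Mir29b-1 and from Mir29b-2): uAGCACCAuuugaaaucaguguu
miR-29c-3p: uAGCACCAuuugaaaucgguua
The seed AGCACCA stands at this position in 4 of the 1738 mature microRNAs of the table (0.230%), which are the 3p arms of these 4 genes. Counted from the 5′ end, miR-29a and miR-29c differ by the single substitution C10U. From miR-29b to miR-29c there were 3 differences in the 22 bases compared, A18G, G21U and U22A. The last bases of miR-29b, AGUGUU, are known as a signal that can take this microRNA into the nucleus. They end 3 of the 1738 mature sequences, those of both miR-29b genes and of Mir92b.

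The 5p arms, by contrast, were different for every gene. They are shown because they are the part of each hairpin by which the miR-29b copies can be told apart, again with the seed in capitals.
miR-29a-5p: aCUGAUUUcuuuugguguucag
miR-29b-1-5p: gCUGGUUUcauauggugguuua
miR-29b-2-5p: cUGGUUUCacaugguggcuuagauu
miR-29c-5p: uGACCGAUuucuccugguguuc
These gave 4 different seeds. The tables count both arms of a hairpin together, so the level of either arm alone is not known.

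The hairpins of the pairs lie close together (coordinates of GRCm38, which is mm10). On the minus strand of chromosome 6, Mir29a spans 31062660 to 31062747 and Mir29b-1 spans 31063023 to 31063093, with 275 bases between them. No other annotated gene overlaps Mir29a, and the lincRNA Gm27019 (31063092 to 31063495) overlaps only 2 bases at the 5′ end of Mir29b-1. On the plus strand of chromosome 1, Mir29b-2 spans 195037040 to 195037120 and Mir29c spans 195037547 to 195037634, with 426 bases between them. Both lie whole within the span of a transcript of the noncoding gene A330023F24Rik and overlap an exon of it. On the opposite strand both overlap an untranslated part of an exon of Cd46, a gene for a complement-regulating membrane protein. Whether each hairpin lies whole in these exons was not computed. In each locus the miR-29b gene comes first in the direction of transcription. The hairpins of the chromosome 6 pair, which held most of the family's counts, are shown with the 3p arm in capitals.
Mir29a: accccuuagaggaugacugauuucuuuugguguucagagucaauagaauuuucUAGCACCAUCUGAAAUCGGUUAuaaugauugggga
Mir29b-1: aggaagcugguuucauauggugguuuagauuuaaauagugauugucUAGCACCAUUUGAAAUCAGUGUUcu

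**Figure D1:**
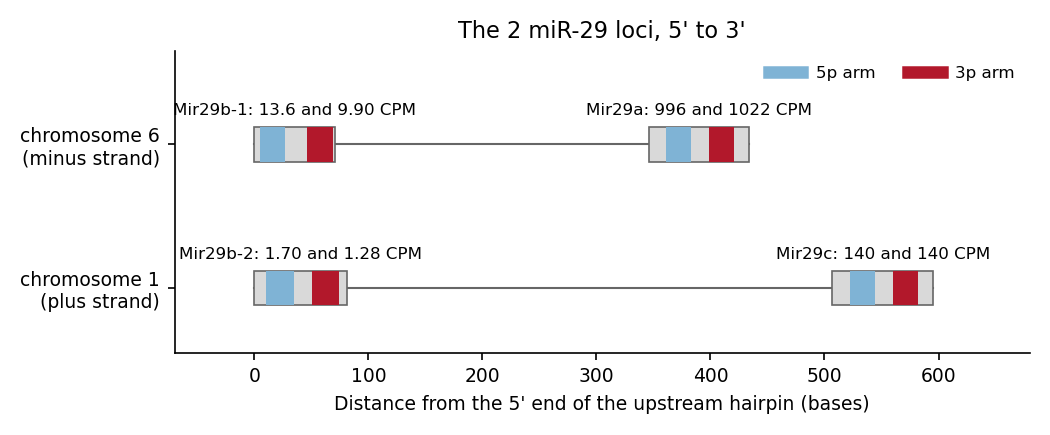
Map of both miR-29 loci, with the distance in bases from the 5′ end of the upstream hairpin on the x axis. Boxes are hairpins with the 5p arm in blue and the 3p arm in red, and the labels give the CPM of replicates 1 and 2. The miR-29b gene stands first at each locus and had the lower level of its pair among uniquely mapped reads, which are a lower limit for the miR-29b copies.

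The miR-29b copies share more than the mature strand. The longest stretch common to both hairpins was 25 bases, which holds the whole 3p arm (capitals).
Mir29b-1 and Mir29b-2: ucUAGCACCAUUUGAAAUCAGUGUU
Mir29b-1 and Mir29c: uugucUAGCACCAUUUGAAAUC
The second stretch, of 22 bases, covers 17 bases of the 3p arm, so full-length miR-29c still differs from miR-29b. Over windows of 20 bases, 9 of 52 in Mir29b-1, 6 of 62 in Mir29b-2 and 3 of 69 in Mir29c also occur in another of 2202 annotated microRNA transcripts. None of the 69 windows of Mir29a does, and its longest stretch shared with another miR-29 hairpin was 14 bases. Only annotated microRNA transcripts were searched, so places elsewhere in the genome that match an arm, and reads lost to them at any of the 4 genes, were not checked. Reads that map to more than 1 place were counted at no gene. They came to 2175174 reads in replicate 1 and 2668030 in replicate 2, which is 34.0% and 33.1% of all reads, and the tables do not say which microRNAs they belong to. The counts of Mir29b-1 and Mir29b-2 are therefore lower limits.

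Levels are given as CPM, counts on the gene's own strand per 1000000 such counts at all microRNA genes. The libraries held 2353946 and 3132763 of these counts, and 3 counts, the limit that a count of 0 allows, equal 1.27 and 0.958 CPM. Checked against markers, the hepatocyte list (Mir122, Mir192, Mir194-1, Mir194-2 and Mir148a) held 10.6% and 11.9% of counts. The erythroid markers Mir451a and Mir144 held 4.96% and 3.95%, the endothelial Mir126a 6.15% and 5.77%, and 3 white cell genes (Mir223, Mir155 and Mir150) 1.06% and 1.00%. Most of the white cell sum was Mir223 (10498 and 9885 CPM), whereas Mir155 had 77.7 and 104.1 CPM and Mir150 25.9 CPM in each library. The white cell marker Mir142 and the erythroid Mir486a and Mir486b were not analysed here under these symbols and are not in these shares. A gene listed as Mir486 was measured but is also left out of the erythroid share. From the first library to the second, Mir486 rose from 404.9 to 515.5 CPM. Mir451a fell from 38020 to 30243 CPM and Mir144 from 11594 to 9272 CPM, so the erythroid markers did not all move the same way. The strand opposite Mir142b, which overlaps Mir142, held 126731 and 180061 counts that were not used. The mesenchymal and stellate list of 5 genes held 1.80% and 1.71%. Most of this sum was Mir143, with 16834 CPM in replicate 1 and 15638 CPM in replicate 2. In the same order Mir214 had 873.0 and 1176 CPM, Mir145a 241.3 and 260.2 CPM, Mir199a-2 15.3 and 14.4 CPM and Mir199a-1 0 and 0.638 CPM. The sum thus followed Mir143, and Mir214 went the other way. Of the neural list, 3 of 6 measured genes were at 0 in both libraries, and the summed level was 258.3 CPM in replicate 1 and 23.3 CPM in replicate 2. Of the muscle list, 3 of 4 were at 0, and the sum was 31.0 and 14.0 CPM. Whether the lists that differ had a part in any miR-29 value was not tested. In whole tissue, fewer cells that express a gene and less RNA per cell cannot be told apart.

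Mir29a had the highest level of the members among uniquely mapped reads. It had 2344 counts in replicate 1 and 3202 in replicate 2, which is 995.8 CPM (95% Clopper-Pearson interval 955.9 to 1037) and 1022 CPM (987.0 to 1058). The mean was 1009 ± 18.6 CPM (SD, n = 2), and the gene ranked 93 of 1973 by mean level, with 95.3% of genes lower. Only 700 of the 1973 genes had a count in either library, so most of the lower genes were at 0. Mir29c came second with 329 and 439 counts, or 139.8 CPM (125.1 to 155.7) and 140.1 CPM (127.3 to 153.9). Its mean was 139.9 ± 0.259 CPM (SD, n = 2), rank 180. The 2 livers overlapped within counting error for each of these genes. All intervals take account of counting error alone, as copies made by PCR are not separate molecules.

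The miR-29b copies were far lower among reads that map to 1 place. Mir29b-1 had 32 and 31 counts, or 13.6 CPM (9.30 to 19.2) and 9.90 CPM (6.72 to 14.0), with a mean of 11.7 ± 2.62 CPM (SD, n = 2) and rank 279. Mir29b-2 had 4 counts in each library, or 1.70 CPM (0.463 to 4.35) and 1.28 CPM (0.348 to 3.27), with a mean of 1.49 ± 0.299 CPM (SD, n = 2) and rank 434. These 4 counts lie just above the limit of 3 counts. The order Mir29a, Mir29c, Mir29b-1, Mir29b-2 was the same in both livers, and no neighbours in it had overlapping intervals in either library. For the miR-29b copies this is the order of the uniquely mapped reads, not of the microRNA they make. Opposite-strand counts were 0 at all 4 genes in both libraries.

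**Figure D2:**
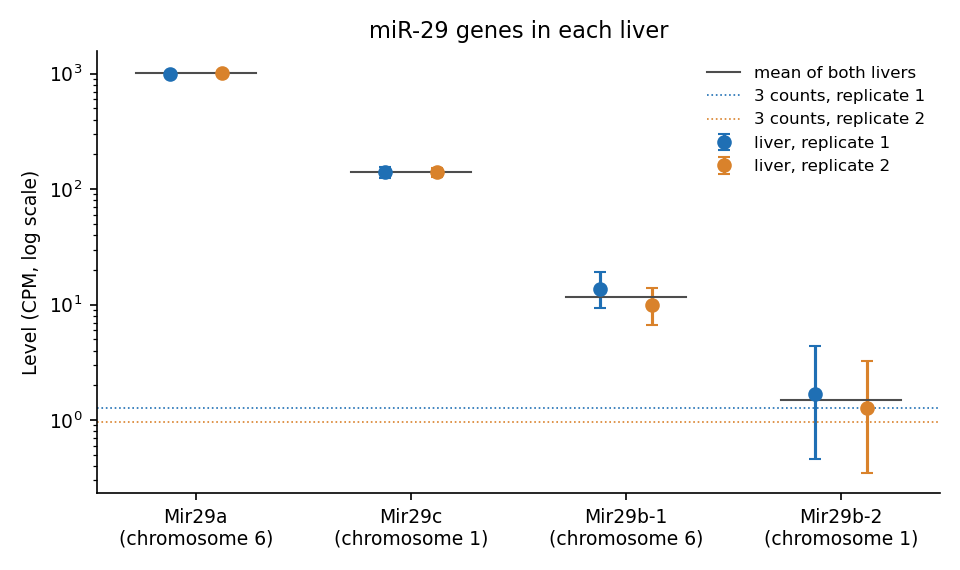
Level of each miR-29 gene in each liver, in CPM on a log scale. Points are single libraries with 95% Clopper-Pearson intervals, horizontal bars are the mean of both livers, and dotted lines are the level of 3 counts. Mir29a averages 1009 CPM and Mir29c 139.9 CPM in both livers, while only Mir29b-2 has intervals that reach the dotted lines.

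**Figure D3:**
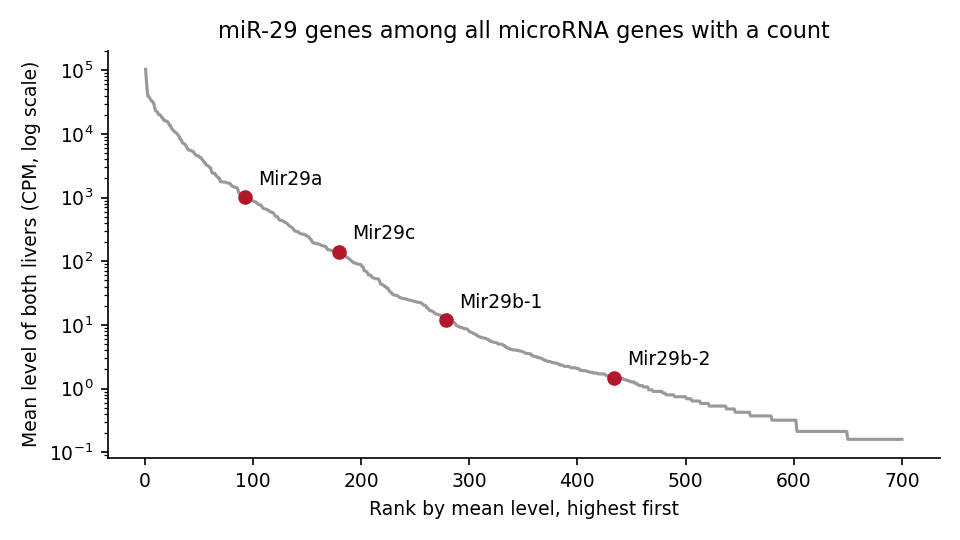
Mean level in CPM (log scale) against rank for the microRNA genes with a count in either library, with the miR-29 genes in red. The members are spread along the curve at ranks 93, 180, 279 and 434.

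Summed over the 4 genes, the family held 1151 CPM in replicate 1 and 1173 CPM in replicate 2, a mean of 1162 ± 16 CPM (SD, n = 2) and 0.115% and 0.117% of the counts. Mir29a alone gave 86.5% and 87.1% of the family's counts, and Mir29c gave 12.1% and 11.9%. Both miR-29b copies together gave 1.33% (95% interval 0.932 to 1.84) and 0.952% (0.664 to 1.32). Since miR-29b reads that map to both loci are not counted, the sum is a lower limit, and these shares describe the uniquely mapped reads, not the make-up of the mature family.

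Among uniquely mapped reads the chromosome 6 pair held most of the family. miR-29b-3p reads that map to both loci cannot be placed at either, and the intervals do not cover them. The pair had 2376 of 2709 family counts in replicate 1, which is 87.7% (95% interval 86.4 to 88.9). In replicate 2 it had 3233 of 3676, which is 87.9% (86.9 to 89.0). In CPM the chromosome 6 pair stood at 1009 and 1032, and the chromosome 1 pair at 141.5 and 141.4. The shares differed by 0.241 percentage points, and a two-sided Fisher's exact test of the counts gave p = 0.786. The odds ratio of replicate 2 over replicate 1 was 1.02 with an interval of 0.876 to 1.19, so these counts leave room for a shift within those bounds.

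The ratio between the loci was also computed for each kind of member. Mir29a had 7.12 times the counts of Mir29c in replicate 1 (95% interval 6.35 to 8.02) and 7.29 times in replicate 2 (6.60 to 8.08). Mir29b-1 had 8 times the counts of Mir29b-2 in replicate 1 (2.84 to 31.1) and 7.75 times in replicate 2 (2.74 to 30.2). Expressed the other way, Mir29b-1 made up 1.35% (0.923 to 1.90) and 0.959% (0.652 to 1.36) of its pair. Mir29b-2 made up 1.20% (0.328 to 3.05) and 0.903% (0.247 to 2.30) of its own. The odds of a miR-29b count at chromosome 6 against chromosome 1 had a ratio of 1.12 (0.395 to 4.40) in replicate 1 and 1.06 (0.373 to 4.16) in replicate 2, each with p = 1 by Fisher's exact test. With 4 counts of Mir29b-2 these intervals are wide. Reads of the whole 3p arm map to both miR-29b copies and are counted at neither. The values that involve these copies therefore describe uniquely mapped reads only, and whether the loci agree in the miR-29b they make is not known. Counts were not divided by length. The hairpins of Mir29a and Mir29c both have 88 bases, and per hairpin base the share of the chromosome 6 pair was 87.85% against 87.83% by counts, a setting added after seeing the data.

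None of the miR-29 genes differed between the livers by the test. The counts of each gene were compared by an exact binomial test (two-sided, Benjamini-Hochberg adjusted over all genes that reached 10 counts in both libraries). It called 139 of 332 genes at an adjusted p under 0.05, a background of 41.9%, with 61 higher in replicate 1 (18.4%) and 78 higher in replicate 2 (23.5%). By TMM scaling the split was 69 against 59 (38.6% called), and by DESeq2 size factors 69 against 58 (38.3% called). Of the miR-29 genes, 3 passed the filter, and 0 were called by library totals, TMM or DESeq2 scaling. The number at an unadjusted p under 0.05 was also 0. Mir29b-2 was below this filter. With a minimum of 1 count 0 of the 4 genes were called against a background of 26.0%, and with no minimum 0 of 4 against 19.9% (9.57% higher in replicate 1 and 10.3% in replicate 2). With a minimum of 100 counts 2 miR-29 genes were tested and 0 called, against a background of 60.5%.

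For Mir29a the ratio of replicate 2 over replicate 1 was 1.03 (95% exact interval 0.973 to 1.08), with an adjusted p of 0.503 by the exact binomial test. For Mir29c it was 1.00 (0.867 to 1.16), with an adjusted p of 1 by the exact binomial test. These intervals leave room for a difference of up to 1.08-fold in Mir29a and 1.16-fold in Mir29c. The ratio of Mir29b-1 was 0.728 (0.430 to 1.23), and that of Mir29b-2 was 0.751 (0.140 to 4.03), and their low counts make these intervals wide. On the log2 scale with 0.5 added to each count, the ratios were 0.038 for Mir29a, 0.0032 for Mir29c, -0.46 for Mir29b-1 and -0.41 for Mir29b-2. The sign of the Mir29c ratio flips by TMM or DESeq2 scaling. The median over all 332 tested genes was 0.03, and the median absolute ratio was 0.16. Of the tested genes, 86.7% had a larger absolute log2 ratio than Mir29a and 98.8% a larger one than Mir29c. For Mir29b-1 that share was 16.3%.

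**Figure D4:**
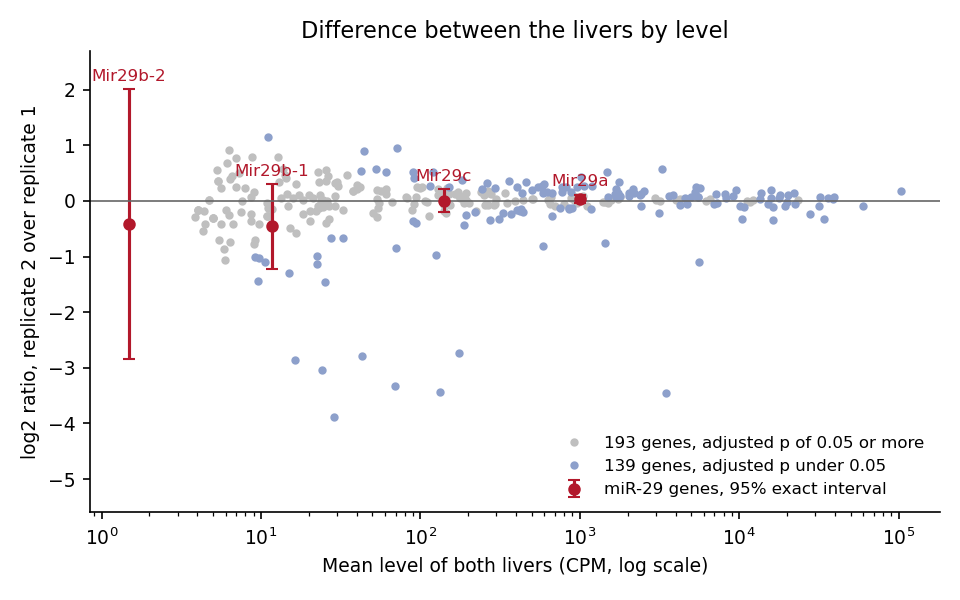
log2 ratio of replicate 2 over replicate 1 against the mean level in CPM (log scale) for the 332 tested genes, the tested miR-29 genes included. The 139 genes with an adjusted p under 0.05 are in blue, and the miR-29 genes are in red with 95% exact intervals. All 4 miR-29 intervals include 0.

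Genes of about the same level show what the test resolved there. The genes ranked next above Mir29a were Mir467d and Mir214, and the next below were Mir188 and Mir329. Mir214, a microRNA of mesenchymal cells that is known from fibrosis, had 873.0 CPM in one liver, replicate 1, and 1176 CPM in the other, a ratio of 1.35 (1.28 to 1.42) with an adjusted p of 8.72e-27 by the exact binomial test. Mir329, of the imprinted Dlk1-Dio3 region, had 879.4 and 1042 CPM, a ratio of 1.18 with an adjusted p of 9.51e-09 by the exact binomial test. Mir188 had 977.5 and 955.4 CPM (adjusted p = 0.566 by the exact binomial test). Mir467d had 1013 and 1076 CPM (adjusted p = 0.0579 by the exact binomial test), and it shares windows of 20 bases with 14 other hairpins. Beside Mir29c stood Mir128-1, Mirlet7a-2, Mir331 and Mir137. Of these only Mir137, a neuronal microRNA, was called, with 242.1 and 22.3 CPM (adjusted p = 7.37e-131 by the exact binomial test). The others were between 129.99 and 149.96 CPM in replicate 1 and between 131.8 and 145.6 CPM in replicate 2. Mir128-1 shares windows of 20 bases with Mir128-2, and Mirlet7a-2 with Mirlet7a-1 and Mirlet7c-1, so their counts are lower limits.

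The miR-29 family was set beside 4 other groups of genes made at more than 1 locus. They are called families here, although miR-15/16 and miR-23/27/24 join microRNAs of different names. Seeds within these groups were not compared. Most members of the 4 groups also share stretches of 20 bases with a copy elsewhere, so the counts of those members are lower limits too. Mir15a, Mir15b, Mir30a, Mir30b, Mir30d and Mir30e share none with another annotated hairpin, so the loss may be unequal between the families. Mir24-1 was not analysed here. In replicates 1 and 2 the miR-29 genes summed to 1151 and 1173 CPM. The miR-101 genes held 7221 and 6900 CPM, the miR-23/27/24 genes 21289 and 21680 CPM, the miR-15/16 genes 30786 and 30118 CPM and the miR-30 genes 38138 and 41899 CPM. By uniquely mapped reads the miR-29 sum was thus the lowest of the 5 in both livers. Its ratio of replicate 2 over replicate 1 was 1.02 (0.970 to 1.07). Relative to the miR-30 family, whose members are high in many epithelia, this ratio was 0.928 times as large (interval 0.882 to 0.976, Fisher's exact p adjusted over 4 families 0.0152). Relative to the miR-101 family it was 1.07 times as large (1.01 to 1.13, adjusted Fisher's exact p = 0.0357). Against miR-15/16 the value was 1.04 (0.991 to 1.10, adjusted Fisher's exact p = 0.148) and against miR-23/27/24 1.00 (0.951 to 1.05, adjusted Fisher's exact p = 0.969). These tests need no scaling between the libraries, but they use counting error alone.

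In the share taken by the highest locus, miR-29 with 87.7% and 87.9% lay between miR-101 and miR-15/16. In the miR-101 family Mir101b gave 98.5% and 98.8%, and in miR-15/16 the locus of Mir15a and Mir16-1 gave 73.9% and 73.0%. The locus of Mir23a, Mir27a and Mir24-2 gave 58.3% and 56.0%, and that of Mir30c-1 and Mir30e, 1 of 3 miR-30 loci, 55.5% and 55.7%. The share moved between the livers beyond counting error in miR-23/27/24 (odds ratio 0.909, interval 0.888 to 0.931, Fisher's exact p adjusted over 5 families 7.64e-15). It also moved in miR-15/16 (0.952, 0.931 to 0.973, adjusted Fisher's exact p = 2.79e-05) and in miR-101 (1.26, 1.05 to 1.51, adjusted Fisher's exact p = 0.0170). It did not pass the test in miR-30 (1.01, 0.993 to 1.03, adjusted Fisher's exact p = 0.328) or miR-29 (adjusted Fisher's exact p = 0.786). The miR-29 interval of 0.876 to 1.19 would hold shifts as large as those of miR-15/16 and miR-23/27/24, so with its lower counts miR-29 is not shown to differ from them.

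**Figure D5:**
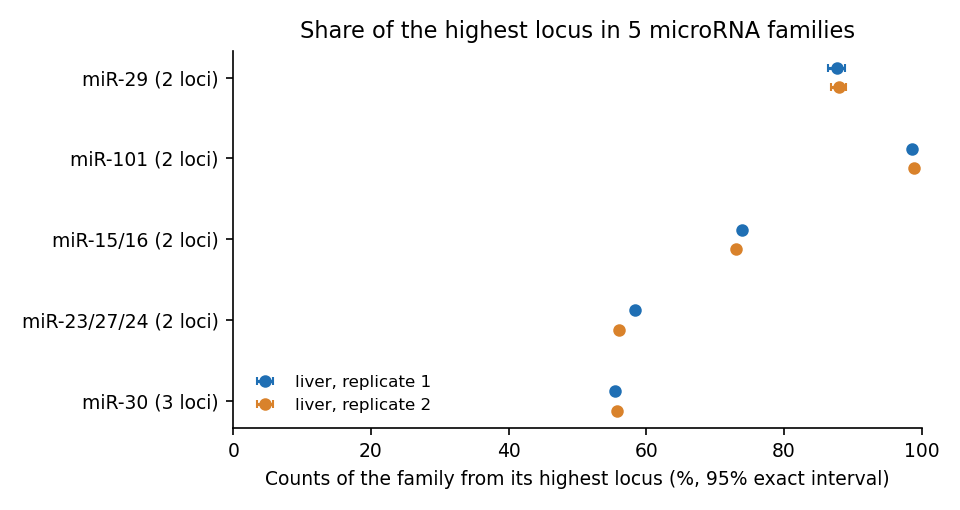
Percent of each family's counts that came from its highest locus, for replicate 1 in blue and replicate 2 in orange, with 95% Clopper-Pearson intervals that are narrower than the points except in miR-29. The miR-29 points lie at 87.7% and 87.9%, below miR-101 and above the other three families.

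Other microRNAs linked to the processes that miR-29 restrains were read from 2 lists. Of 36 microRNAs known from fibrosis and matrix, 35 were measured and 31 tested. By the exact binomial test 10 were higher in replicate 2 and 6 in replicate 1, against backgrounds of 23.5% and 18.4%, and their median log2 ratio was 0.11 against 0.03 for all tested genes. By TMM or DESeq2 scaling, added after seeing the data, 8 were higher in replicate 2 and 6 in replicate 1. Of all 332 tested genes, 17.8% were higher in replicate 2 and 20.8% in replicate 1 by TMM scaling, and 17.5% and 20.8% by DESeq2 scaling. The 3 highest were Mir122, Mir335 and Mir21a, and 12 of the 35 had a higher mean level than Mir29a. Mir122, the microRNA typical of hepatocytes, had a ratio of 1.13 (1.128 to 1.14), whereas Mir335 had 0.940 (0.931 to 0.949) and Mir21a, which is known to promote fibrosis, 0.848 (0.839 to 0.856), and all 3 were called. The mesenchymal and stellate list, summed, held 17963 CPM in replicate 1 and 17088 CPM in replicate 2, most of it Mir143. By library totals 1 of its 4 tested genes was called higher in each direction, against backgrounds of 23.5% in replicate 2 and 18.4% in replicate 1. The part of this list in the miR-29 values was not tested. Among the stellate and smooth muscle microRNAs of this list, Mir143 was 0.929 times as high in replicate 2 (16834 and 15638 CPM, adjusted p = 1.40e-26 by the exact binomial test), whereas Mir145a had 241.3 and 260.2 CPM (adjusted p = 0.297 by the exact binomial test). Of 8 microRNAs known to target DNA methyltransferases, all were tested, with a median log2 ratio of -0.02. By library totals 3 were higher in replicate 1 and 0 in replicate 2, against backgrounds of 18.4% and 23.5%. The 3 were Mir143, Mir101b and Mir101a, and all of them also belong to the first list. Mir185, known to target Dnmt1, had 1750 and 1832 CPM (adjusted p = 0.0579 by the exact binomial test), and 5 of the 8 were above Mir29a in mean level. Mir148a, Mir148b and Mir152, which share a seed and target Dnmt1, had ratios of 1.03 (0.991 to 1.07), 1.01 (0.942 to 1.08) and 0.992 (0.859 to 1.14), and none was called.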

How the data were processed

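The deposited values are raw read counts per microRNA gene, not normalized, in 1 table per library. Per the labels and the notes deposited with the files, the build is mm10 and the annotation M4. The choice of aligner and counter is not given in the sources used here. Without a header, the tables were read by column, and their first count equals the sum of the other two, read as the gene's strand and the opposite strand. Same-strand counts were used, and rows naming no gene (63.2% and 61.2% of reads) were left out of totals.

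Symbols and positions came from GENCODE M21 by Ensembl ID without version (1894 of 1973 matched). The IDs of Mir29b-1 and Mir29b-2 have versions 1 and 2 in the tables but 2 and 3 in M21, so their counted span may differ from the positions given. Sequences are from RefSeq.

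The libraries were compared by exact binomial tests (scipy 1.17.1) given the totals, at a threshold of 0.05, with Fisher's exact tests for shares. Scaling alternatives used edgeR 4.0.16 and DESeq2 1.42.0. Other alternatives were strand, minimum count, pseudocount, denominator and replicate left out. The steps were tested on simulated counts with planted folds of 1.25 to 4 and counting error (Poisson) alone. Variation between libraries beyond counting error was not simulated, so that check does not cover it. All members, the rule for named genes (every member, the 2 genes ranked above and below Mir29a and Mir29c, and the 3 highest of each list) and the lists were chosen with earlier results of these data known. A few other list members are named with values already seen.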

Additional observations from a re-analysis of the deposited data

How the results depend on the processing

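Under every alternative run, the share of the chromosome 6 pair and its difference between the livers kept their values or side of the threshold. The count of miR-29 genes called stayed at 0. The number of all genes called ran from 127 to 147, with 139 by library totals. The percent called moved with the minimum count. It was 19.9% with no minimum (139 of 700) and 60.5% with a minimum of 100 counts (130 of 215). Doubling the smaller tail of the exact test, chosen after the data were seen, called 136. For the share of the chromosome 6 pair and its difference, much of the stability was fixed in advance. Opposite-strand counts were 0 at every miR-29 gene, so counting regardless of strand repeated the same values. Leaving out the miR-29b copies removed few counts. The difference was run only under these alternatives, so its stability says little. Levels in CPM followed the denominator by construction. The family, the chromosome 6 pair and the chromosome 1 pair had 1047, 919.3 and 127.4 CPM by counts regardless of strand. They had 439.6, 386.1 and 53.5 per 1000000 reads of the whole table, and 1297, 1139 and 157.8 CPM with Mir122 left out of the totals. Leaving out each replicate gave 1151 to 1173 CPM for the family. The log2 ratio of Mir29a stayed above 0 in every alternative run, with the lowest value 0.0037 by DESeq2 scaling, and several others near 0 turned. The family turned to -0.0027 by TMM and -0.0059 by DESeq2 scaling, the chromosome 6 pair to -0.0019 by DESeq2 scaling, and the chromosome 1 pair to 0.020 with Mir122 left out. Mir29c turned to -0.027 by TMM, -0.031 by DESeq2 scaling, -0.0071 by counts regardless of strand and -0.0069 with a pseudocount of 10. No paired analysis was possible because there is 1 group.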
